A study of Mus musculus with 46 samples.

Results

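The interferon-induced genes followed here are 32 genes switched on by type I or type II interferons, in hearts of MRL/MpJ (MRL) and C57BL/6J (C57) mice before and after myocardial infarction. They were taken as a named list: 4 regulators, 3 sensors of nucleic acid, 15 type I effectors, 7 GTPases and 3 Schlafen genes. Of these, 27 had a probe set that the platform annotation gives to that symbol alone (35 probe sets), out of 12393 such genes on the array. Isg15 and Tgtp1 are covered by probe sets shared with Gm9706 and Tgtp2, and Ddx58, Ifi44 and Ifi27 have none under those symbols, so these 5 members carry no value. The mice were males 15 to 20 weeks old, and total RNA of the left ventricle was hybridized to Affymetrix MOE430A arrays. The left coronary artery was ligated, and on day 1 and day 5 the infarct tissue, which includes its border, was separated from the remaining (non-infarct) left ventricle with a biopsy punch. Day 0 hearts came from unoperated mice, and "infarct" tissue there is the matching anterior-apical region. Operated mice received isoflurane and buprenorphine, and the labels name neither for the unoperated mice. The 12 groups of strain, day and region hold 46 arrays, with 4 arrays a group and 3 in both C57 day 0 groups, and the labels call them biological replicates. MRL is an inbred strain known for tissue repair and for a tendency to autoimmunity, and no transgene or interferon treatment is named for either strain.

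Interferons act in 2 classes on separate receptors. Type I interferons (the alpha and beta interferons) signal through the receptor Ifnar1/Ifnar2 and the kinases Jak1 and Tyk2 to a complex that holds Stat2 and Irf9 and binds a promoter element called ISRE, while interferon gamma acts on an element called GAS. The effectors described here (the Ifit, Oas, Rsad2 and Bst2 genes among them) block steps of virus growth and are read as the classic output of the type I class. The GTPases of the Gbp and Irg families guard vacuoles against bacteria and parasites and respond strongly to interferon gamma. In infarcted heart, nucleic acid from dying cells taken up by macrophages is known to switch on Irf3 and the type I program.

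Promoters of 7 members described below are shown for the interferon element they hold. RefSeq promoter windows of GRCm38.p6, running from 250 bases before to 50 bases after each start site, were found for 27 of the 32 listed members (not Zbp1, Usp18, Rtp4, Ifi27 and Iigp1) and searched for the ISRE core GAAANNGAAA on both strands and for the GAS core TTCNNNGAA, whose letters read the same on both strands. The ISRE core was in a window of 16 of the 27 members (59.3%), against 3.99% of the 27025 genes with a window (3.44% of 32851 windows). The GAS core was in 9 of 27 members (33.3%), against 9.55% of genes. By class, the ISRE core was found for 8 of 12 type I effectors, 5 of 6 GTPases, 2 of 2 sensors and 1 of 4 regulators, and for 0 of 3 Schlafen genes. The GAS core was found for 6 of 12 type I effectors, 2 of 6 GTPases, 0 of 2 sensors, 1 of 4 regulators and 0 of 3 Schlafen genes. A match of letters is a description and not a measured site. The 100-base stretches below hold the ISRE cores (the GAS core for Irf1) in capitals, 5′ to 3′ on the gene's own strand, so that an ISRE core on the opposite strand starts with TTTC.
Rsad2: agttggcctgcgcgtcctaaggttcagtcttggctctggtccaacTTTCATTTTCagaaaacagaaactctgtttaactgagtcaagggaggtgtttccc
Ifit3: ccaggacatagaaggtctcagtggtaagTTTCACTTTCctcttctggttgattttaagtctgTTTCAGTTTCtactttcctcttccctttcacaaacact
Oas1a: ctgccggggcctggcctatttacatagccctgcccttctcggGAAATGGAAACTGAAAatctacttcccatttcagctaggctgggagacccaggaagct
Ifih1: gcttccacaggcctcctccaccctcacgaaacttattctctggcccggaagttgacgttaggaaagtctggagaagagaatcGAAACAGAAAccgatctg
Gbp3: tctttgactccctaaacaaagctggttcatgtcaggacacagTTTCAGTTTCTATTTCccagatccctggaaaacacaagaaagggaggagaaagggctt
Igtp: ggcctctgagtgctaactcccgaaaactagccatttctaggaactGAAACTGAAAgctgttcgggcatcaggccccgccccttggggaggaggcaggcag
Irf1: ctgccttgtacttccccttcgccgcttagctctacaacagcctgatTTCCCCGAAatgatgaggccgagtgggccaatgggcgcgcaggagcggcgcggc
Rsad2 is at chr12:26456518-26456617 on the minus strand, and its core begins at base -120 from the start site. Ifit3 is at chr19:34583345-34583444 on the plus strand, with 2 cores. Oas1a, at chr5:120907488-120907587 on the minus strand, and Gbp3, at chr3:142559957-142560056 on the plus strand, each hold 2 overlapping cores that form 1 run. Ifih1 is at chr2:62646206-62646305 on the minus strand, and its core lies after the start site. Igtp is at chr11:58199477-58199576 on the plus strand, and Irf1, with the GAS core and no ISRE core in its window, is at chr11:53769878-53769977 on the plus strand. Ifit1, Ifit2 and Ifit3 lie on chromosome 19, Oasl2 and Oas1a on chromosome 5, Gbp2 and Gbp3 on chromosome 3, and Irf1, Igtp, Irgm1, Ifi47 and the Schlafen genes on chromosome 11.

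Values are log2 intensities per probe set, changes are differences of group means in log2 units ± SE, and a gene was called at a limma adjusted p under 0.05. A bare number in parentheses after a change is its adjusted p. Array medians lay between 4.22 and 4.48 on the log2 scale, and the size of a change from a group below the median of every array is not exact. To be tested, a probe set had to exceed its own array's median on 3 or more arrays, which left 25 members in infarct tissue (not Zbp1 and Slfn1) and 22 in non-infarct tissue (also not Irf7, Ifi47 and Slfn4, which are then given as levels). Arrays labelled MRL day 5 infarct replicate 3 and C57 day 5 non-infarct replicate 3 go against their groups over all genes. On the third principal component, which separates the strains, the first lay at -21.2, where the other MRL arrays lay between 11.3 and 29.8, and the second at 13.7, where the other C57 arrays lay between -25.4 and 2.5. On the first component the MRL infarct array lay at 11, where the other MRL day 5 infarct arrays lay between 107.9 and 115.7 and the other C57 day 5 non-infarct arrays between -30.2 and 35.3. The C57 non-infarct array lay at 99.1 there. An exchange of these 2 labels is possible and was not tested, so day 5 values of both groups hold for the labels as deposited. Both were kept as labelled, and day 5 counts are given with this pair of arrays and without it. Cardiomyocyte markers were high in every array, at a mean log2 level of 12.23 to 14.34 over 7 genes. In RNA of whole tissue, fewer cells of a type and less RNA per cell cannot be told apart.

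The mean level of the type I effectors lay lower in every MRL day 0 array than in every C57 day 0 array of the same region, and higher on day 5 than on day 0 in both strains. The mean log2 level of the 12 measured effectors in infarct-region tissue was 4.40, 4.51, 4.58 and 4.53 in the MRL day 0 arrays, against 5.73, 5.32 and 5.89 in the C57 day 0 arrays. It was 5.00, 4.83, 5.00 and 5.17 in MRL on day 1, against 5.05, 5.37, 6.85 and 5.84 in C57, where the third array stood above the others. On day 5 it was 5.55, 5.57, 7.04 and 6.25 in MRL, against 7.29, 7.53, 7.72 and 8.02 in C57. MRL and C57 arrays overlapped on day 1 alone, and the MRL value of 7.04 belongs to the array that stood apart. In non-infarct tissue the effector level was 5.50, 5.55, 5.65 and 6.02 in MRL on day 5, against 6.23, 6.72, 6.30 and 7.24 in C57, again with no overlap. These levels are descriptions of a named list and were not tested as a score.

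The 6 measured GTPases had a median day 5 change of 0.30 in MRL and 0.56 in C57 infarct tissue, where the effectors had 1.54 and 1.98. Their mean log2 level in infarct-region tissue was 5.11, 5.44, 5.44 and 5.21 in MRL and 5.63, 5.55 and 6.09 in C57 on day 0. On day 1 it ranged from 4.31 to 6.19 in MRL and from 4.91 to 5.29 in C57. On day 5 it was 4.83, 5.33, 6.17 and 5.80 in MRL, against 6.49, 6.01, 6.09 and 6.66 in C57. The strains overlapped on day 1 and day 5 but not on day 0. The day 5 overlap came through the MRL value of 6.17 alone, which belongs to the array that stood apart.

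**Figure D1:**
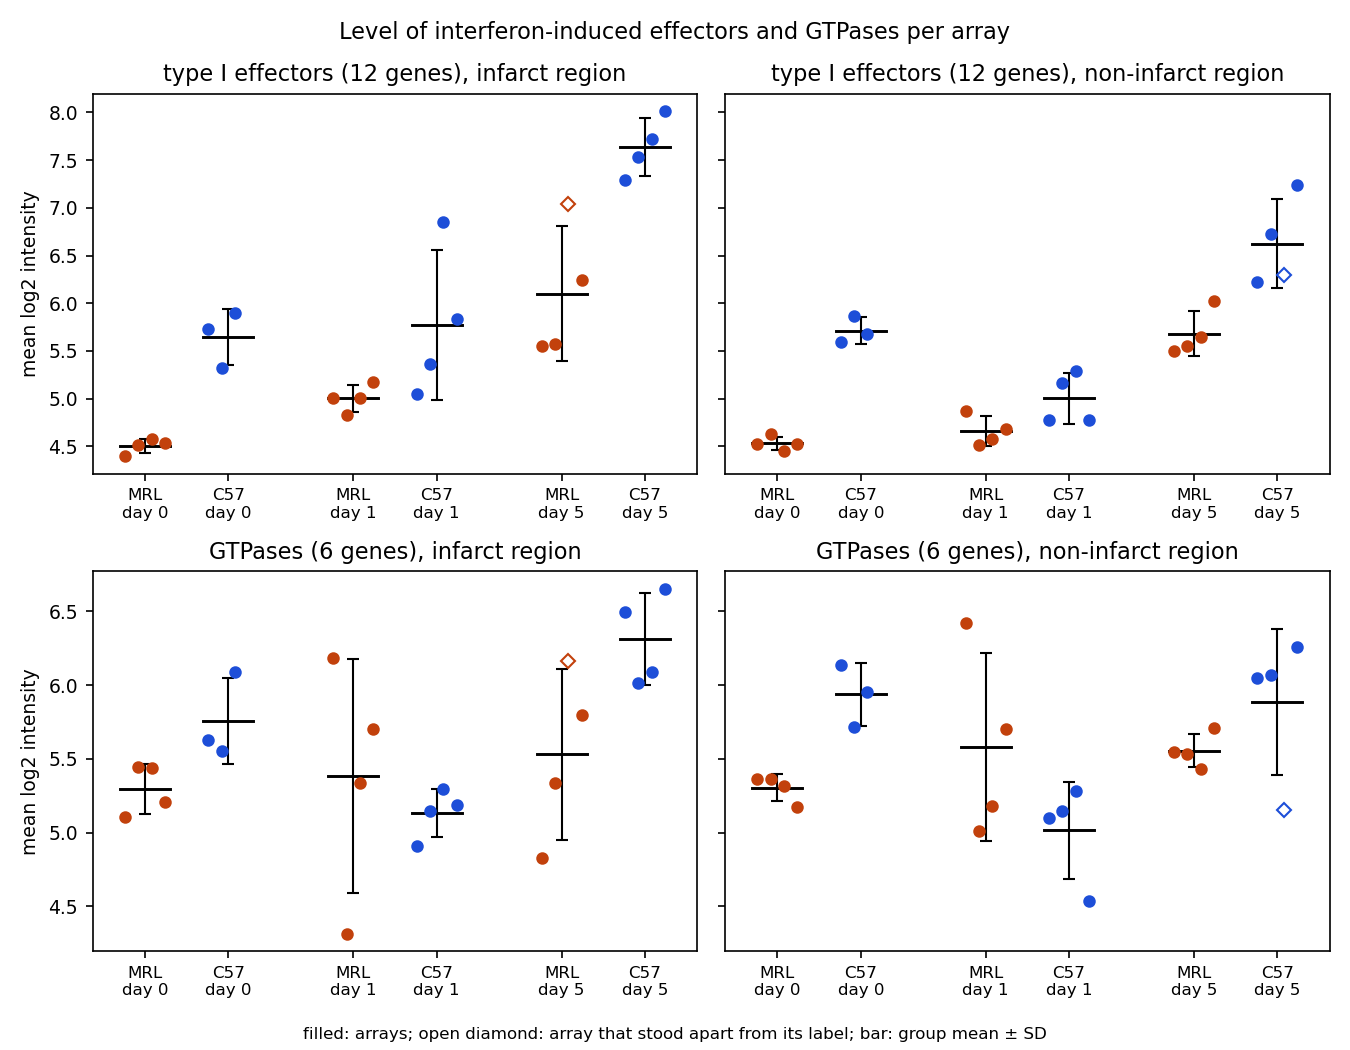
Mean log2 intensity of the 12 type I effectors (top) and the 6 GTPases (bottom) in each array, for infarct (left) and non-infarct tissue (right), with MRL in orange and C57 in blue on days 0, 1 and 5. Bars are group means ± SD (4 arrays, 3 for C57 day 0), and open diamonds are the pair of arrays that stood apart; on day 0 the MRL effector levels (4.40 to 4.58 in infarct-region tissue) lie below the C57 levels (5.32 to 5.89).

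By day 5 after infarction most members that were measured had risen in infarct tissue. In MRL 14 of 25 tested members rose (24.4% of all genes tested rose there), with a median change of 1.12 over the 25, against -0.03 over all genes. In C57 15 of 25 rose (24.4% of all genes), with a median of 1.52, against 0.03 over all genes. No member was called lower in either strain with all arrays, where 24.1% of all genes were in MRL and 19.6% in C57. Calls in either direction took in 48.6% of all genes in MRL and 44% in C57. Type I effectors made up 8 (of 12 tested) of the MRL calls and 9 (of 12) of the C57 calls, while 1 of 6 GTPases was called in MRL and 2 of 6 in C57. The calls shared by both strains were 11 members, that is 11 of the 14 MRL calls and 11 of the 15 C57 calls: Bst2, Ifih1, Ifit1, Ifit2, Ifitm3, Irf7, Irgm1, Oas1a, Oasl2, Rtp4 and Slfn2. Without the pair of arrays that stood apart, 13 members were higher and 1 lower in MRL (median 0.78), and 16 were higher in C57. Of the called members, 9 of 14 in MRL and 6 of 15 in C57 had a mean under every array's median in at least 1 of the groups compared. Without the pair, 27.7% of all genes were called higher and 26.3% lower in MRL, and 26% higher in C57.

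Among the regulators, Irf7, the factor that amplifies the type I response, rose in both strains. In MRL infarct tissue its log2 intensities were 2.54, 2.54, 1.99 and 1.93 on day 0, 2.94, 2.53, 2.80 and 2.81 on day 1, and 3.61, 2.80, 5.11 and 5.08 on day 5. In C57 they were 2.57, 2.80 and 3.03 on day 0, 2.61, 2.78, 4.46 and 3.03 on day 1, and 4.88, 4.92, 5.50 and 6.26 on day 5. Every day 5 array of both strains lay above every day 0 array of its strain, although MRL replicate 2 on day 5 stayed within the range of day 1. The day 5 change was 1.90 ± 0.45 (adjusted p = 0.0017) in MRL, or 1.58 ± 0.45 (adjusted p = 0.0056) without the pair, and 2.59 ± 0.48 (adjusted p = 0.00037) in C57. The day 0 mean of Irf7 lay under every array's median in both strains, so these sizes are not exact. Irf7 passed the filter mainly through day 5 arrays, where it was high. Over the alternatives run, its lowest change was 0.51 in MRL and 0.95 in C57, and both calls held. Irf1, which responds to interferon gamma and activates many GTPase genes, was not called on day 5 against day 0 with all arrays. Its log2 intensities in MRL were 6.75, 7.22, 7.03 and 7.01 on day 0, 7.21, 6.46, 7.49 and 7.00 on day 1, and 7.40, 7.42, 6.94 and 7.87 on day 5. The C57 arrays were at 7.55, 7.51 and 7.18 on day 0, 6.91, 7.15, 7.15 and 7.00 on day 1, and 7.55, 8.08, 7.46 and 7.57 on day 5. Both strains overlapped their day 0 group on day 5, in MRL through replicate 3 (6.94) alone, the array that stood apart. The change of Irf1 was 0.41 ± 0.21 (adjusted p = 0.13) in MRL and 0.25 ± 0.23 (adjusted p = 0.39) in C57. Without the pair the MRL change of Irf1 was called, at 0.56 ± 0.22 (adjusted p = 0.035). Irf9 and Stat2, the DNA-binding and activating partners of the ISRE complex, were called in MRL at 0.65 (0.023) and 0.90 (0.017). In C57 the change was 0.54 (0.078) for Irf9 and 0.72 (0.075) for Stat2, which missed the threshold. The difference between the strains' changes was not called for any regulator.

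The RNA sensor Ifih1, known as MDA5, was at 3.80, 3.85, 5.24 and 4.70 in MRL on day 5, against 3.10, 3.51, 3.36 and 3.13 on day 0. The C57 values were 5.70, 5.74, 5.92 and 6.32 on day 5, against 4.78, 3.43 and 4.50 on day 0. Day 5 lay above day 0 in every array of both strains. The changes were 1.13 ± 0.32 (adjusted p = 0.0068) in MRL and 1.68 ± 0.35 (adjusted p = 0.00085) in C57, and 0.84 ± 0.31 (adjusted p = 0.027) in MRL without the pair. Zbp1, the sensor of Z-form nucleic acid, passed no filter.

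Bst2 (tetherin, which holds budding virus on the cell surface) had the largest change of an effector in MRL. Its log2 intensities in MRL infarct tissue were 3.87, 3.57, 4.47 and 3.57 on day 0, 5.44, 4.57, 3.73 and 5.20 on day 1, and 7.58, 7.09, 8.01 and 7.95 on day 5. In C57 they were 5.16, 6.00 and 6.67 on day 0, 3.84, 3.86, 7.17 and 5.53 on day 1, and 8.38, 8.81, 9.04 and 9.32 on day 5. Day 5 lay above day 0 and day 1 in all arrays of both strains. The day 5 rise was 3.79 ± 0.55 (adjusted p = 2.2e-05) in MRL and 2.95 ± 0.59 (adjusted p = 7e-04) in C57. The MRL day 0 mean of Bst2 lay under every array's median, so this size is not exact, and with an offset of 32 the changes were 2.32 in MRL and 2.41 in C57. In C57 the largest effector changes were those of Oasl2, Oas1a and Ifit1, in an order that was not stable: with an offset of 32 added before log2, Oasl2 was at 1.83 and Oas1a at 2.50. Oasl2 is a relative of the synthetases that make the messenger 2-5A. Oasl2 was at 3.29, 4.45, 5.98 and 4.69 in MRL on day 5, against 3.17, 3.20, 3.19 and 3.07 on day 0. The C57 values were 6.14, 7.11, 7.20 and 7.09 on day 5, against 3.72, 3.20 and 3.24 on day 0. The change was 1.44 ± 0.48 (adjusted p = 0.018) in MRL and 3.50 ± 0.52 (adjusted p = 4.1e-05) in C57. Without the pair the MRL change of Oasl2 was 0.98 ± 0.45 (adjusted p = 0.075) and was no longer called.

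Ifit3, which binds Ifit1 and helps it to hold viral RNA, passed the threshold in C57, and the difference between the strains' changes was not called. Its log2 intensities in MRL infarct tissue were 4.20, 5.42, 4.43 and 5.07 on day 0, 4.76, 4.87, 4.70 and 4.90 on day 1, and 4.96, 5.37, 7.56 and 5.56 on day 5. The C57 arrays were at 5.71, 6.04 and 6.65 on day 0, 5.67, 5.87, 7.48 and 5.45 on day 1, and 7.62, 7.51, 7.96 and 8.45 on day 5. In MRL replicate 3 of day 5 stood far above the other arrays, which overlapped day 0, while in C57 day 5 lay above day 0 throughout. The change was 1.08 ± 0.47 (adjusted p = 0.062) in MRL and 1.75 ± 0.50 (adjusted p = 0.0087) in C57. Ifit1, which binds RNA without a proper cap, rose by 2.18 (0.012) in MRL and 3.36 (0.0013) in C57, and its neighbour Ifit2 by 1.23 (0.023) and 1.44 (0.016). With an offset of 32 the MRL change of Ifit1 was not called (adjusted p = 0.053). Oas1a, a 2-5A synthetase, rose by 1.86 (0.00074) in MRL and 3.44 (4.8e-06) in C57. Rtp4, a chaperone of membrane receptors that is induced by interferon, rose by 2.35 (0.0014) in MRL and 2.55 (0.0017) in C57. Ifitm3, which keeps viruses from leaving endosomes, rose by 1.70 (1.1e-05) in MRL and 1.60 (6.3e-05) in C57. Usp18, the protease that removes Isg15 and damps the type I receptor, was called in C57 at 2.22 (0.0018), while its MRL change was 1.12 (0.054). Ifi35 was called in MRL at 1.63 (0.00081), against 0.20 (0.69) in C57. Eif2ak2 (PKR, the kinase that stops translation on double-stranded RNA) stayed between 4.85 and 6.13 in infarct-region tissue of days 0 and 5 and was not called. Without the pair, Ifit2 in MRL was 0.79 (0.096) and was no longer called.

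Rsad2 (viperin, an enzyme that makes a chain-ending nucleotide) was called between the strains on every day by the probe set of highest mean, whose changes over time were not called with all arrays. Its log2 intensities in MRL infarct tissue were 5.15, 5.18, 5.41 and 5.41 on day 0, 5.16, 5.17, 6.00 and 6.61 on day 1, and 5.25, 5.71, 7.81 and 5.87 on day 5. In C57 they were 7.62, 6.79 and 7.46 on day 0, 6.79, 7.69, 8.72 and 7.67 on day 1, and 8.41, 8.57, 8.39 and 8.17 on day 5. The day 5 change was 0.87 ± 0.44 (adjusted p = 0.11) in MRL and 1.09 ± 0.48 (adjusted p = 0.071) in C57, where day 5 lay above day 0 in every array. A second of its 3 probe sets was called in C57, at 1.59 ± 0.45 (adjusted p = 0.0078), so the probe sets disagree on this call. Without the pair the first was called too, at 1.09 ± 0.36 (adjusted p = 0.018).

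Of the GTPases, Irgm1, a regulator of the other Irg proteins, rose in both strains. It was at 4.68, 4.93, 5.72 and 6.18 in MRL on day 5, against 4.12, 4.22, 4.22 and 4.22 on day 0. The C57 arrays were at 6.05, 6.05, 5.75 and 6.47 on day 5, against 4.25, 4.49 and 4.94 on day 0. No array of day 5 overlapped day 0, and the changes were 1.18 ± 0.27 (adjusted p = 0.0013) in MRL and 1.52 ± 0.29 (adjusted p = 0.00043) in C57. Igtp (Irgm3) varied between arrays of 1 group. Its log2 intensities in MRL infarct tissue were 4.37, 4.79, 4.74 and 4.09 on day 0, 6.48, 3.65, 4.72 and 8.19 on day 1, and 3.97, 4.19, 5.82 and 5.07 on day 5. The C57 values were 4.73, 5.04 and 5.82 on day 0, 4.64, 5.48, 4.49 and 5.01 on day 1, and 6.24, 5.39, 5.41 and 6.17 on day 5. The spread was widest in MRL on day 1, where 2 arrays lay above all day 0 arrays and 1 lay below them. Its day 5 change was 0.26 ± 0.63 (adjusted p = 0.75) in MRL and 0.61 ± 0.69 (adjusted p = 0.49) in C57. Iigp1, which coats parasite vacuoles, had changes of -1.19 ± 0.84 (adjusted p = 0.25) in MRL and -0.34 ± 0.90 (adjusted p = 0.78) in C57. Without the pair, Iigp1 was called lower in MRL, at -1.98 ± 0.79 (adjusted p = 0.041). Ifi47 was called in C57 at 0.87 (0.0038), a rise of a gene whose day 0 level was below the median of every array. The changes were 0.55 (0.18) in MRL and 0.16 (0.73) in C57 for Gbp3, and 0.29 (0.43) and 0.52 (0.19) for Gbp2, and were not called. A second probe set of Gbp2 gave 1.49 (0.02) in MRL, so the probe sets of Gbp2 disagree there.

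**Figure D2:**
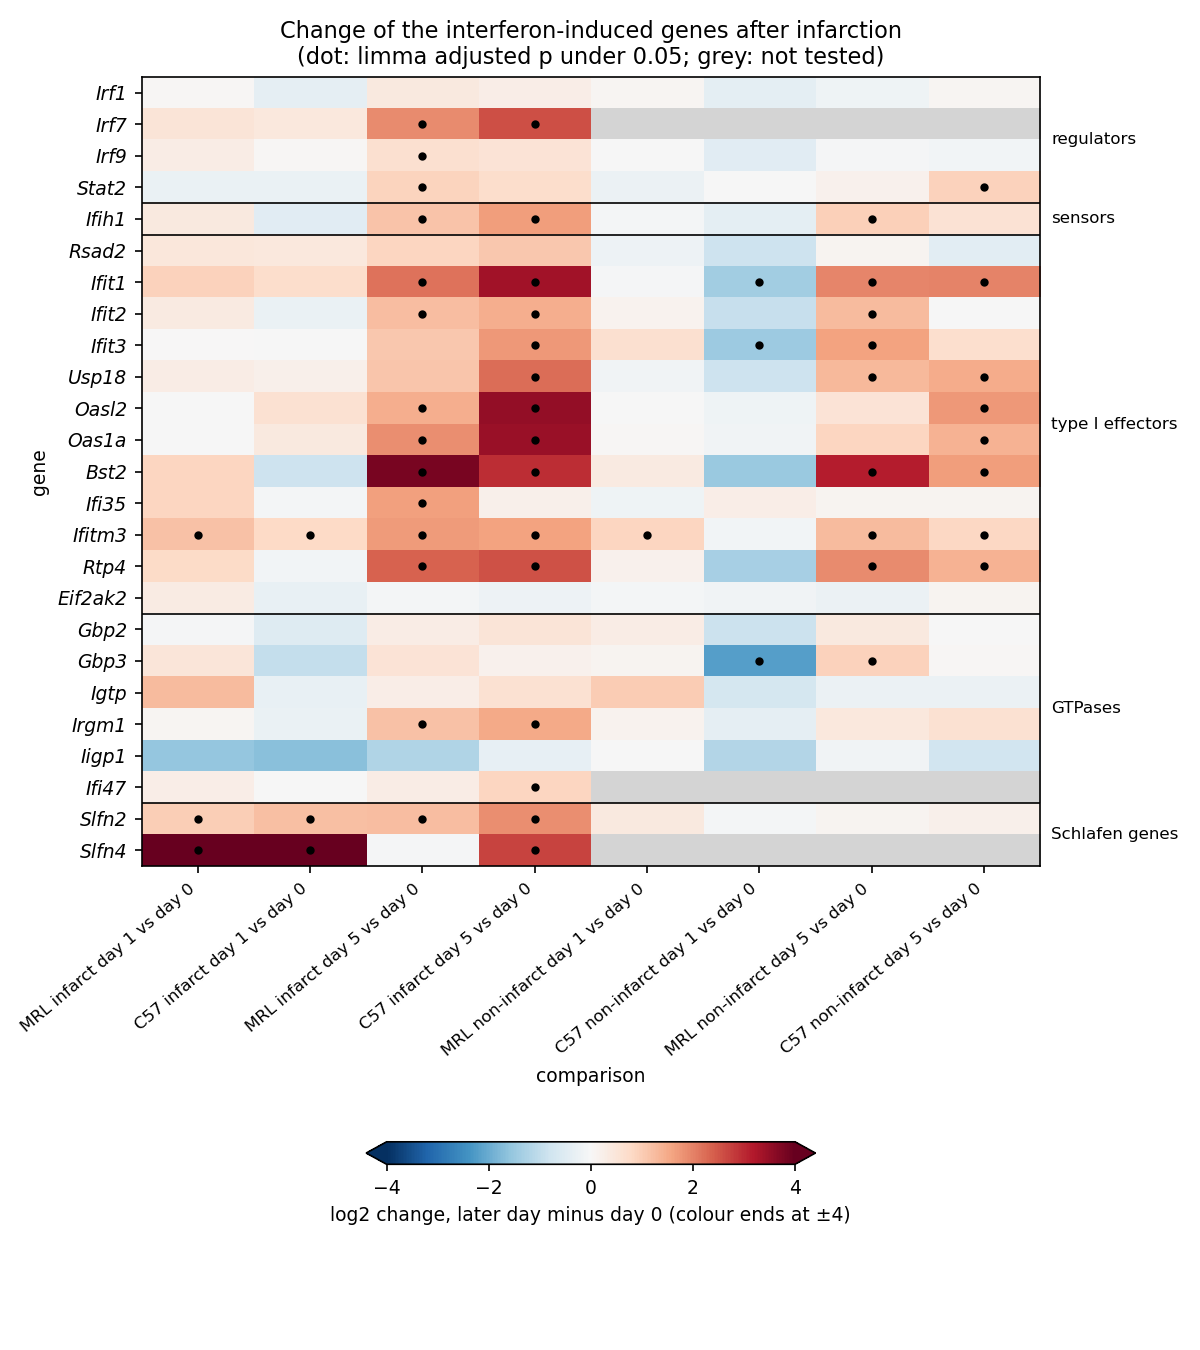
Log2 change from day 0 of the 25 members tested in infarct tissue (rows, by class) in the 8 comparisons of a later day with day 0 (columns, MRL left of C57). Colour gives the change and ends at ±4, a dot marks a limma adjusted p under 0.05, and grey cells were not tested; the type I effector rows hold 8 of the 14 calls in MRL infarct tissue on day 5 and 9 of the 15 in C57.

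On day 1 few members had changed in infarct tissue. The same 3 members rose in both strains: 3 of 25 in MRL (10.1% of all genes tested rose) and 3 of 25 in C57 (9.48% of all genes). No member was called lower in either strain, where 12.4% of all genes were in MRL and 7.07% in C57. An unadjusted p under 0.05 was found for 4 members in MRL (36.5% of all genes) and 4 in C57 (31.8% of all genes). The median change was 0.35 in MRL and -0.08 in C57. Slfn4, a Schlafen gene of mouse myeloid cells, had the largest change. Its log2 intensities in MRL infarct tissue were 1.77, 1.79, 1.79 and 1.79 on day 0, 4.39, 5.17, 7.07 and 7.07 on day 1, and 1.68, 1.79, 1.72 and 1.72 on day 5. In C57 they were 1.85, 1.79 and 1.77 on day 0, 4.23, 5.62, 8.13 and 7.01 on day 1, and 2.88, 5.06, 4.05 and 5.97 on day 5. All day 0 arrays lay at 1.85 or lower and all day 1 arrays at 4.23 or higher, and on day 5 the MRL arrays overlapped day 0, while the C57 arrays lay above day 0 and overlapped day 1.

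The day 1 rise of Slfn4 was 4.14 ± 0.69 (adjusted p = 0.00034) in MRL and 4.45 ± 0.75 (adjusted p = 0.00039) in C57. On day 5 its change from day 0 was -0.06 ± 0.69 (adjusted p = 0.95) in MRL and 2.69 ± 0.75 (adjusted p = 0.0069) in C57, and the difference between these changes was -2.75 ± 1.02 (adjusted p = 1), which was not called. Slfn4 is below the median of every array at day 0, so the sizes are not exact, and with an offset of 32 its C57 day 5 change was 0.73 (0.22) and was not called. A further probe set is shared with Slfn3 and was not used. Slfn2, which keeps lymphocytes and monocytes quiescent, was at 5.30, 5.86, 5.24 and 5.75 in MRL on day 1, against 4.43, 4.64, 4.61 and 4.58 on day 0. The C57 values were 5.91, 6.20, 7.36 and 6.19 on day 1, against 5.26, 5.25 and 5.11 on day 0. Day 1 lay above day 0 in each strain, with changes of 0.98 ± 0.32 (adjusted p = 0.037) in MRL and 1.20 ± 0.35 (adjusted p = 0.023) in C57. Slfn2 was also called on day 5, at 1.24 (0.0039) in MRL and 1.84 (0.00045) in C57. Ifitm3 was the third, at 1.16 (0.0016) in MRL and 0.79 (0.035) in C57. The C57 count was 1 without any 1 of the C57 day 0 replicates 1, 2 and 3.

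In infarct tissue the neutrophil markers moved with the Schlafen genes on day 1, and in non-infarct tissue they rose while the Schlafen level changed little. Of 7 listed markers 3 passed the filter, and 2 of them rose in each strain. Their mean log2 level on day 1 was 7.32, 8.31, 8.69 and 8.53 in MRL, against 3.35, 3.50, 3.46 and 3.48 on day 0. In C57 it was 8.49, 9.04, 9.25 and 9.10 on day 1, against 3.60, 3.48 and 3.38 on day 0. On day 5 the marker level was 4.51 to 5.27 in MRL and 3.70 to 4.93 in C57. In non-infarct tissue the mean marker level went from 3.43 on day 0 to 6.32 on day 1 in C57, and from 3.41 to 5.59 in MRL. The mean level of the Schlafen genes there went from 3.53 to 3.65 in C57 and from 3.18 to 3.49 in MRL. The part of neutrophils in the day 1 rise of Slfn4 and Slfn2 in infarct tissue was not tested.

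From day 1 to day 5 more members were called in C57 than in MRL infarct tissue, a difference that was not itself tested. In MRL 7 of 25 members were higher on day 5 than on day 1 (17.8% of all genes tested) and 1 was lower (13% of all genes), with a median of 0.74. In C57 17 of 25 were higher (20.5% of all genes), with a median of 1.12. The higher members in MRL were Bst2, Irf7, Irgm1, Oas1a, Oasl2, Rtp4 and Stat2, and the lower one was Slfn4, at -4.20 ± 0.69 (adjusted p = 0.00018). In C57 Gbp2 and Gbp3 were among the calls, at 1.04 (0.011) and 1.12 (0.013), and Irf1 at 0.61 (0.032). A second probe set of Gbp2 was called in both strains, at 1.64 (0.021) in MRL and 2.25 (0.0022) in C57, so its probe sets disagree in MRL. These changes use the same day 1 arrays as the comparison of day 1 with day 0. Without the pair, 5 members were higher in MRL and 1 lower: Irf7, Oasl2 and Rtp4 lost their calls and Ifitm3 gained one. The MRL count over both directions was 5 without MRL day 1 replicate 4 or MRL day 5 replicate 4, in place of 8 (30.9% of all genes). Without the pair, 23% of all genes were called higher and 19.8% lower in MRL.

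**Figure D3:**
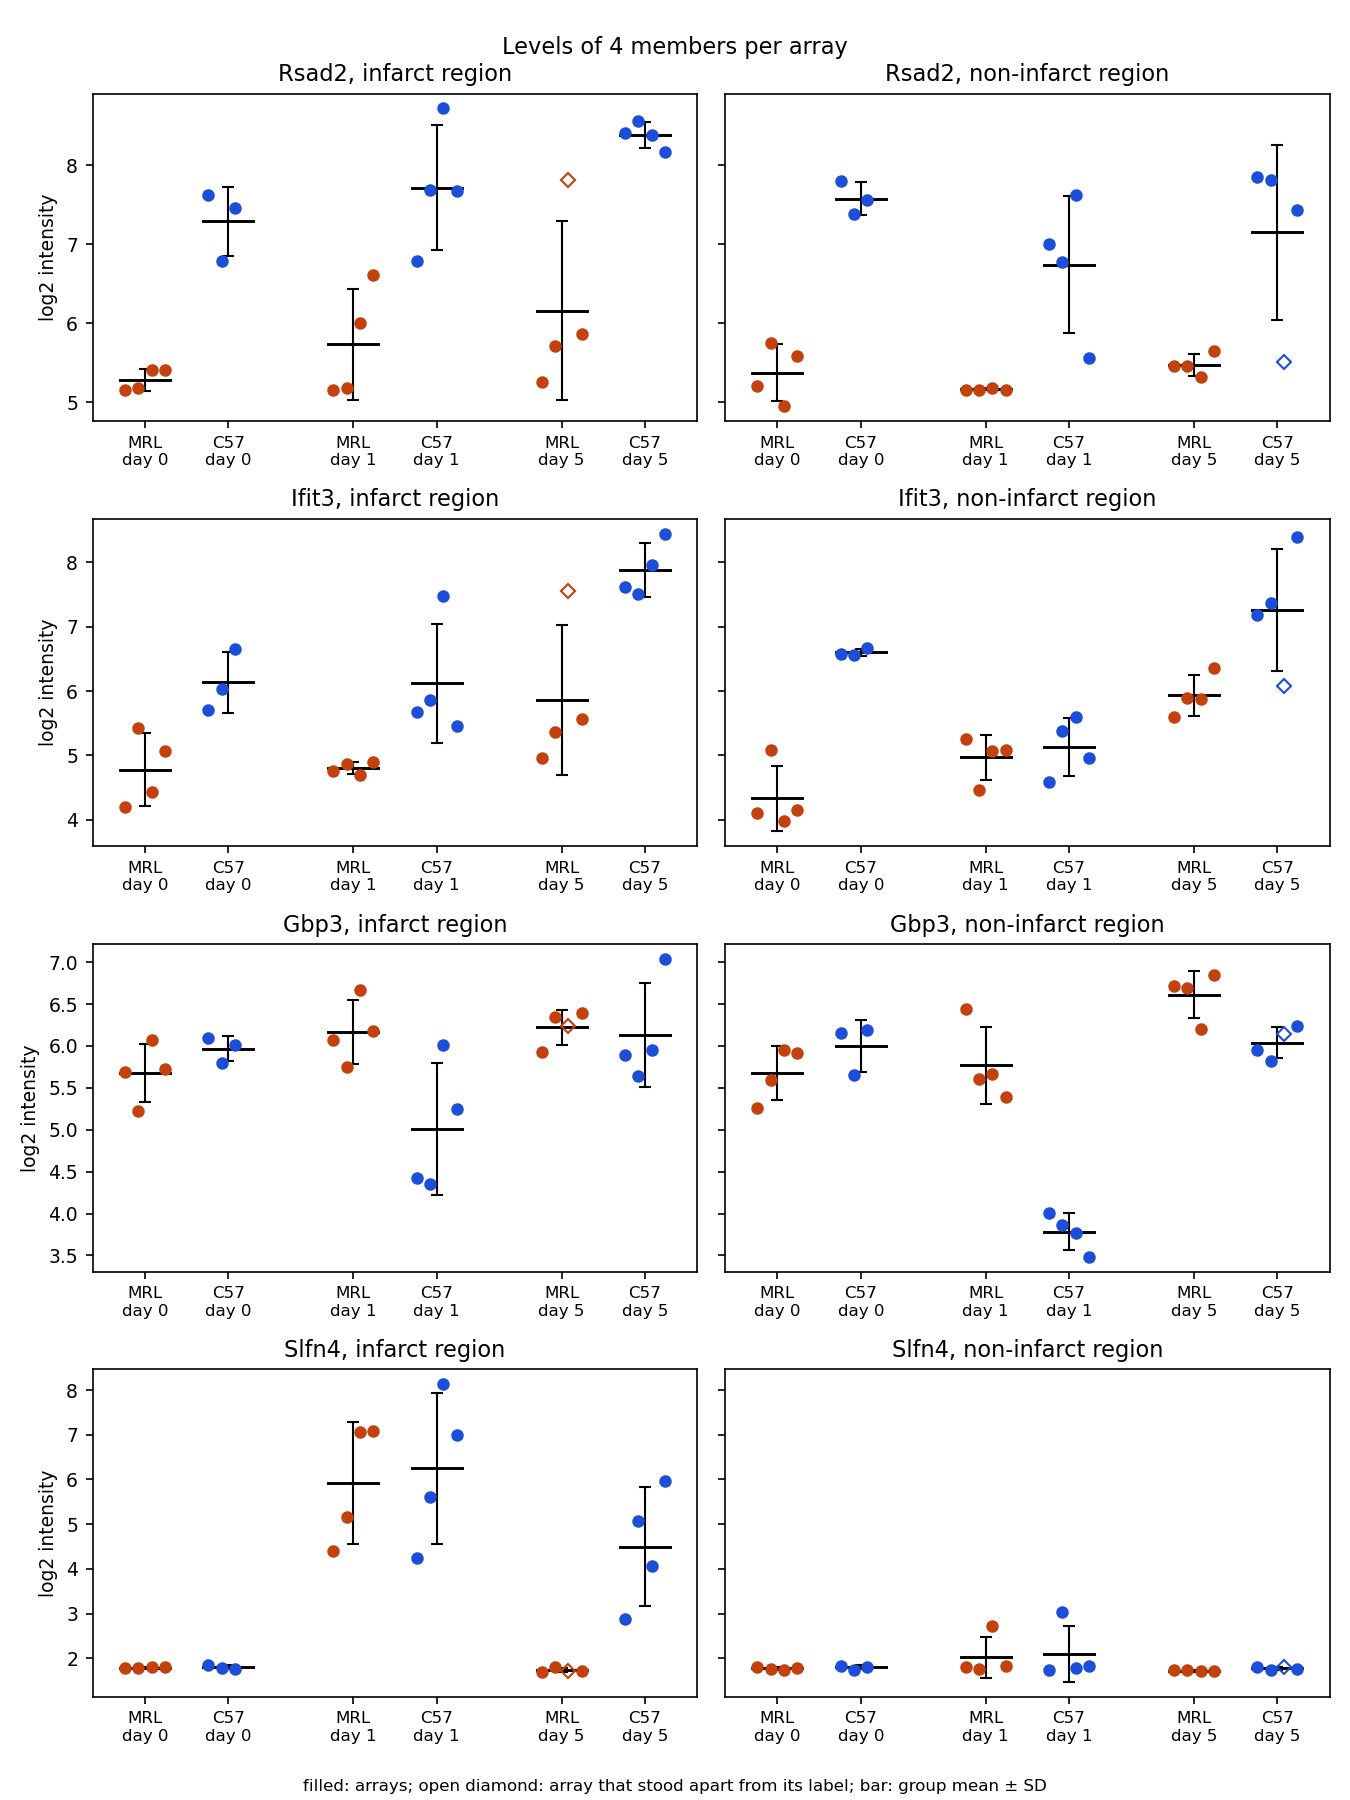
Log2 intensity of Rsad2, Ifit3, Gbp3 and Slfn4 (rows) in each array, for infarct (left) and non-infarct tissue (right), with MRL in orange and C57 in blue on days 0, 1 and 5. Bars are group means ± SD (4 arrays, 3 for C57 day 0), and open diamonds are the pair of arrays that stood apart. Gbp3 in C57 non-infarct tissue on day 1 (3.49 to 4.00) lies below all other arrays of that tissue.

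In non-infarct tissue on day 1 the calls were falls in C57 and a rise in MRL. In C57 3 of 22 tested members fell (1.31% of all genes tested fell), 21 of 22 changes were below 0, and the median was -0.57, against -0.02 over all genes. In MRL 1 of 22 rose (0.833% of all genes) and the median was 0.07. In 10 of 22 members all C57 day 1 arrays lay below all day 0 arrays (8.43% of all genes did). Gbp3, a GTPase that binds vacuole membranes, fell in C57. It was at 6.44, 5.61, 5.66 and 5.39 in MRL on day 1, against 5.25, 5.59, 5.95 and 5.91 on day 0. The C57 arrays were at 4.00, 3.87, 3.77 and 3.49 on day 1, against 6.16, 5.65 and 6.20 on day 0. The C57 arrays of both days did not overlap, and the MRL arrays did.

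The change of Gbp3 was 0.10 ± 0.21 (adjusted p = 0.93) in MRL and -2.22 ± 0.23 (adjusted p = 1e-05) in C57, where its day 1 level was below the median of every array. By day 5 the C57 arrays were at 5.95, 5.82, 6.14 and 6.24 and overlapped day 0. Ifit3 and Ifit1 were the other falls in C57, at -1.47 (0.033) and -1.39 (0.025), beside a second probe set of Gbp2 at -1.84 (0.048), and Ifitm3 was the rise in MRL, at 0.87 (0.012). With an offset of 32 the C57 falls of Ifit3 and Ifit1 were not called. Ifit3 was at 5.25, 4.47, 5.06 and 5.09 in MRL on day 1, against 4.10, 5.09, 3.98 and 4.16 on day 0. In C57 it was at 4.59, 5.39, 5.59 and 4.95, against 6.58, 6.56 and 6.66 on day 0. Without the pair, whose arrays enter the spread of the fit, 5 members fell in C57 (3.17% of all genes), with Ifit2 and Rtp4 added. The C57 count was 1 without C57 day 0 replicate 2 or without C57 day 1 replicate 1 or 4, and the MRL count was 0 without MRL day 0 replicate 4.

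On day 5 members also rose in non-infarct tissue. In MRL 9 of 22 rose (16.4% of all genes tested), with a median change of 0.49, and in C57 8 of 22 rose (12.3% of all genes), with a median of 0.40. No member fell in either strain, where 8.39% of all genes fell in MRL and 9.85% in C57. Of these, 7 in MRL and 7 in C57 were type I effectors. Bst2, Ifit1, Ifitm3, Rtp4 and Usp18 were called in both strains, which is 5 of the 9 MRL calls and 5 of the 8 C57 calls. Bst2 was at 6.28, 6.42, 6.98 and 7.34 in MRL on day 5, against 3.91, 3.55, 3.53 and 3.41 on day 0. The C57 arrays were at 5.90, 7.30, 8.60 and 8.52 on day 5, against 5.18, 6.48 and 6.12 on day 0. The groups did not overlap in MRL and overlapped in C57, with changes of 3.15 ± 0.48 (adjusted p = 0.00013) in MRL and 1.66 ± 0.52 (adjusted p = 0.03) in C57.

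Ifit1 rose by 1.94 (0.00022) in MRL and 2.00 (0.00097) in C57 non-infarct tissue. With an offset of 32 its MRL change was not called (adjusted p = 0.055). Usp18 rose by 1.30 (0.001) in MRL and 1.48 (0.0017) in C57. Ifit3, Ifit2, Gbp3 and Ifih1 were further calls in MRL, at 1.60 (0.0026), 1.27 (0.0019), 0.94 (0.0036) and 0.96 (0.021). Oasl2, Oas1a and Stat2 were further calls in C57, at 1.72 (0.013), 1.41 (0.024) and 0.92 (0.049). Irf7, untested in this tissue, was at 2.79, 3.44, 3.51 and 3.55 in MRL on day 5, against 2.00, 2.53, 2.15 and 2.53 on day 0. The C57 values were 4.04, 4.12, 4.91 and 5.21 on day 5, against 2.83, 2.79 and 2.81 on day 0, so no array of day 5 reached down to day 0 in either strain. Without the pair the count was 9 in MRL (20.1% of all genes) and 6 in C57 (7.63% of all genes), where Bst2, Oas1a, Rtp4 and Stat2 lost their calls and Ifit3 and Irgm1 gained one. The C57 count was 5 without C57 day 0 replicate 1 or 3 and 4 without C57 day 5 replicate 4.

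Infarct tissue exceeded non-infarct tissue of the same strain and day in 1 to 8 of the 25 tested members. On day 1 the count was 1 of 25 in MRL (4.57% of all genes tested were higher) and 5 of 25 in C57 (4.1% of all genes). Slfn4 was that member in MRL, at 3.90 ± 0.54 (adjusted p = 4.5e-05), and was called in C57 too, at 4.15 ± 0.54 (adjusted p = 4.7e-06). The others in C57 were Ifit1, Gbp3, Slfn2 and Ifitm3, at 1.88 (0.032), 1.23 (0.0065), 1.22 (0.011) and 0.63 (0.045). On day 5 the count was 4 of 25 in MRL (5.34% of all genes) and 8 of 25 in C57 (5.57% of all genes). The MRL calls were Slfn2, Irgm1, Irf9 and Irf1, at 1.11 (0.015), 0.85 (0.032), 0.63 (0.028) and 0.55 (0.042). The C57 calls were led by Slfn4 at 2.71 (0.0022), Oas1a at 2.12 (0.0014) and Oasl2 at 1.80 (0.021).

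No member was called lower in infarct tissue with all arrays, where 5.13% of all genes were in MRL and 3.45% in C57 on day 1, and 10.3% in MRL and 3.78% in C57 on day 5. Without the pair, Iigp1 and Usp18 were lower in MRL infarct tissue on day 5 (19.2% of all genes), beside 5 higher members (18.3% of all genes). The C57 counts were then 8 on day 5 (18.7% of all genes) and 8 on day 1 (6.47% of all genes). The MRL day 5 count was 1 without MRL infarct replicate 1 or 4 or without MRL non-infarct replicate 1, 2 or 3, and 7 over both directions without MRL infarct replicate 3. The C57 day 5 count was 3 without C57 non-infarct replicate 1 or infarct replicate 4, and 4 without C57 infarct replicate 2 or 3. The C57 day 1 count was 3 without C57 non-infarct replicate 1, 3 or 4 or infarct replicate 4, and 1 without infarct replicate 3. The MRL day 1 count was 3 without MRL infarct replicate 1.

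Before infarction most members had a lower mean in MRL than in C57, and type I effectors were called. In infarct-region tissue of day 0 all 25 tested changes were below 0, with a median of -0.55, against 0.03 over all genes. Of these, 2 of 25 were called lower (0.394% of all genes tested were called lower and 0.762% higher), and 12 of 25 had every MRL array below every C57 array (5.63% of all genes). In non-infarct tissue of day 0, 6 of 22 were called lower (0.847% of all genes), 21 of 22 changes were below 0 with a median of -0.81, and 14 of 22 had every MRL array below every C57 array (7.4% of all genes). The effector median was -1.26 in infarct-region and -1.14 in non-infarct tissue, and the GTPase median was -0.42 and -0.67.

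By the probe set of highest mean, Rsad2 was called lower in MRL in all 6 comparisons of the strains, while its other probe sets were called in 2 and 3 of the 6. In infarct-region tissue of day 0 it was at 5.15, 5.18, 5.41 and 5.41 in MRL, against 7.62, 6.79 and 7.46 in C57. In non-infarct tissue of day 0 it was at 5.21, 5.75, 4.95 and 5.58 in MRL, against 7.80, 7.38 and 7.56 in C57. The strains did not overlap in either tissue on day 0, nor in infarct tissue on day 1 or day 5. The difference was -2.01 ± 0.48 (adjusted p = 0.039) in infarct-region and -2.20 ± 0.44 (adjusted p = 0.0066) in non-infarct tissue on day 0. On day 1 it was -1.98 (0.03) in infarct and -1.58 (0.036) in non-infarct tissue. On day 5 it was -2.22 (0.014) in infarct and -1.68 (0.041) in non-infarct tissue, or -2.77 (4.3e-05) and -2.23 (6.8e-05) without the pair. The array labelled MRL day 5 infarct replicate 3 was at 7.81 for Rsad2, against 5.25 to 5.87 in the other arrays of its group. The array labelled C57 day 5 non-infarct replicate 3 was at 5.52, against 7.43 to 7.85 in the others of its group. The other probe sets of Rsad2 gave -1.19 (0.44) and -1.65 (0.1) in infarct-region tissue of day 0, which were not called, and -1.31 (0.019) and -2.03 (0.014) in non-infarct tissue. Neither was called in non-infarct tissue on day 1, at -0.67 (0.24) and -0.92 (0.29), or on day 5, at -0.98 (0.09) and -1.39 (0.12). Of the 6 calls of the first probe set, 1 held under every alternative run, that of non-infarct tissue on day 0.

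The second call in infarct-region tissue of day 0 was Ifi35, a leucine zipper protein. It was at 4.17, 3.97, 4.95 and 4.84 in MRL, against 6.44, 6.73 and 6.67 in C57, with a difference of -2.13 ± 0.37 (adjusted p = 0.0038). In non-infarct tissue of day 0, 5 further effectors were lower in MRL: Bst2 at -2.32 (0.019), Ifit3 at -2.27 (0.0013), Ifit2 at -1.67 (0.0017), Ifit1 at -1.46 (0.025) and Ifitm3 at -0.77 (0.027). Ifit3 was at 4.10, 5.09, 3.98 and 4.16 in MRL, against 6.58, 6.56 and 6.66 in C57, so even the highest MRL array lay below all C57 arrays. Ifit2 was at 3.94, 3.99, 3.85 and 4.08 in MRL, against 5.44, 6.01 and 5.47 in C57, with no overlap either. The infarct-region count was 1 without any 1 of its 7 arrays (MRL replicates 1 to 4 and C57 replicates 1 to 3), and the non-infarct count was 3 without C57 replicate 2 or MRL replicate 3.

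On day 1 the strains differed in 1 member in infarct and in 3 in non-infarct tissue. In infarct tissue Rsad2 was the 1 call among 25 (0.526% of all genes tested were called lower), and the median difference was -0.37. In non-infarct tissue 2 of 22 were lower (1.09% of all genes), 1 of 22 was higher (1.48% of all genes), and 11 changes lay above 0 and 11 below. The lower ones were Rsad2 and Ifi35, the second at -1.41 (0.0048). Gbp3 was the higher one, at 6.44, 5.61, 5.66 and 5.39 in MRL against 4.00, 3.87, 3.77 and 3.49 in C57, a difference of 1.99 ± 0.21 (adjusted p = 1e-05) with no overlap. In infarct tissue Gbp3 differed by 1.16 (0.11) on day 1. The infarct count was 0 without MRL replicate 1 or 2 or C57 replicate 2 or 4, and 2 without C57 replicate 1.

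On day 5 in infarct tissue 6 of 25 members were lower in MRL (0.513% of all genes tested), and the median difference was -1.24. The 5 effectors were Oasl2, Rsad2, Usp18, Ifit3 and Oas1a, and the sixth was the sensor Ifih1. Oasl2 was at 3.29, 4.45, 5.98 and 4.69 in MRL, against 6.14, 7.11, 7.20 and 7.09 in C57, with no overlap and a difference of -2.28 ± 0.48 (adjusted p = 0.023). Usp18 was at 2.77, 2.76, 5.56 and 3.84 in MRL, against 5.87, 5.71, 5.36 and 6.40 in C57, and differed by -2.10 ± 0.47 (adjusted p = 0.035). The groups of Usp18 overlapped through MRL replicate 3 alone. Ifit3 differed by -2.02 (0.046), Oas1a by -1.81 (0.028) and Ifih1 by -1.52 (0.023). In 9 of 25 members every MRL array lay below every C57 array (1.63% of all genes). Without the pair 8 were lower, with Ifit1 at -2.87 (0.027) and Ifit2 at -1.90 (0.0066) added (1.01% of all genes were then called lower), and 15 of 25 did not overlap (4.85% of all genes).

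The number of member calls on day 5 depended on single arrays. Shares of all genes without each array are not given, so this cannot be read as particular to the members. The infarct count was 0 without MRL replicate 2 or C57 replicate 2 or 3, 1 without MRL replicate 1 or C57 replicate 4, and 2 without MRL replicate 4. In non-infarct tissue of day 5, 3 of 22 were lower in MRL (0.355% of all genes tested were lower and 1.28% differed in either direction), with a median of -0.68. They were Rsad2, Ifit1 and Usp18, the last 2 at -1.52 (0.013) and -1.03 (0.046). Without the pair 7 were lower (1.36% of all genes), with Ifit3, Oasl2, Irgm1 and Ifi35 added at -1.72 (0.0012), -1.95 (0.00016), -0.99 (0.0092) and -1.15 (0.024). The non-infarct count was 0 without MRL replicate 1 or C57 replicate 2 or 4, 1 without MRL replicate 2, 3 or 4, and 7 without C57 replicate 3. Slfn4 was at 1.68, 1.79, 1.72 and 1.72 in MRL infarct tissue, against 2.88, 5.06, 4.05 and 5.97 in C57, and all MRL arrays lay below all C57 arrays. The difference of Slfn4, -2.76 ± 0.69 (adjusted p = 0.08), was not called.

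**Figure D4:**
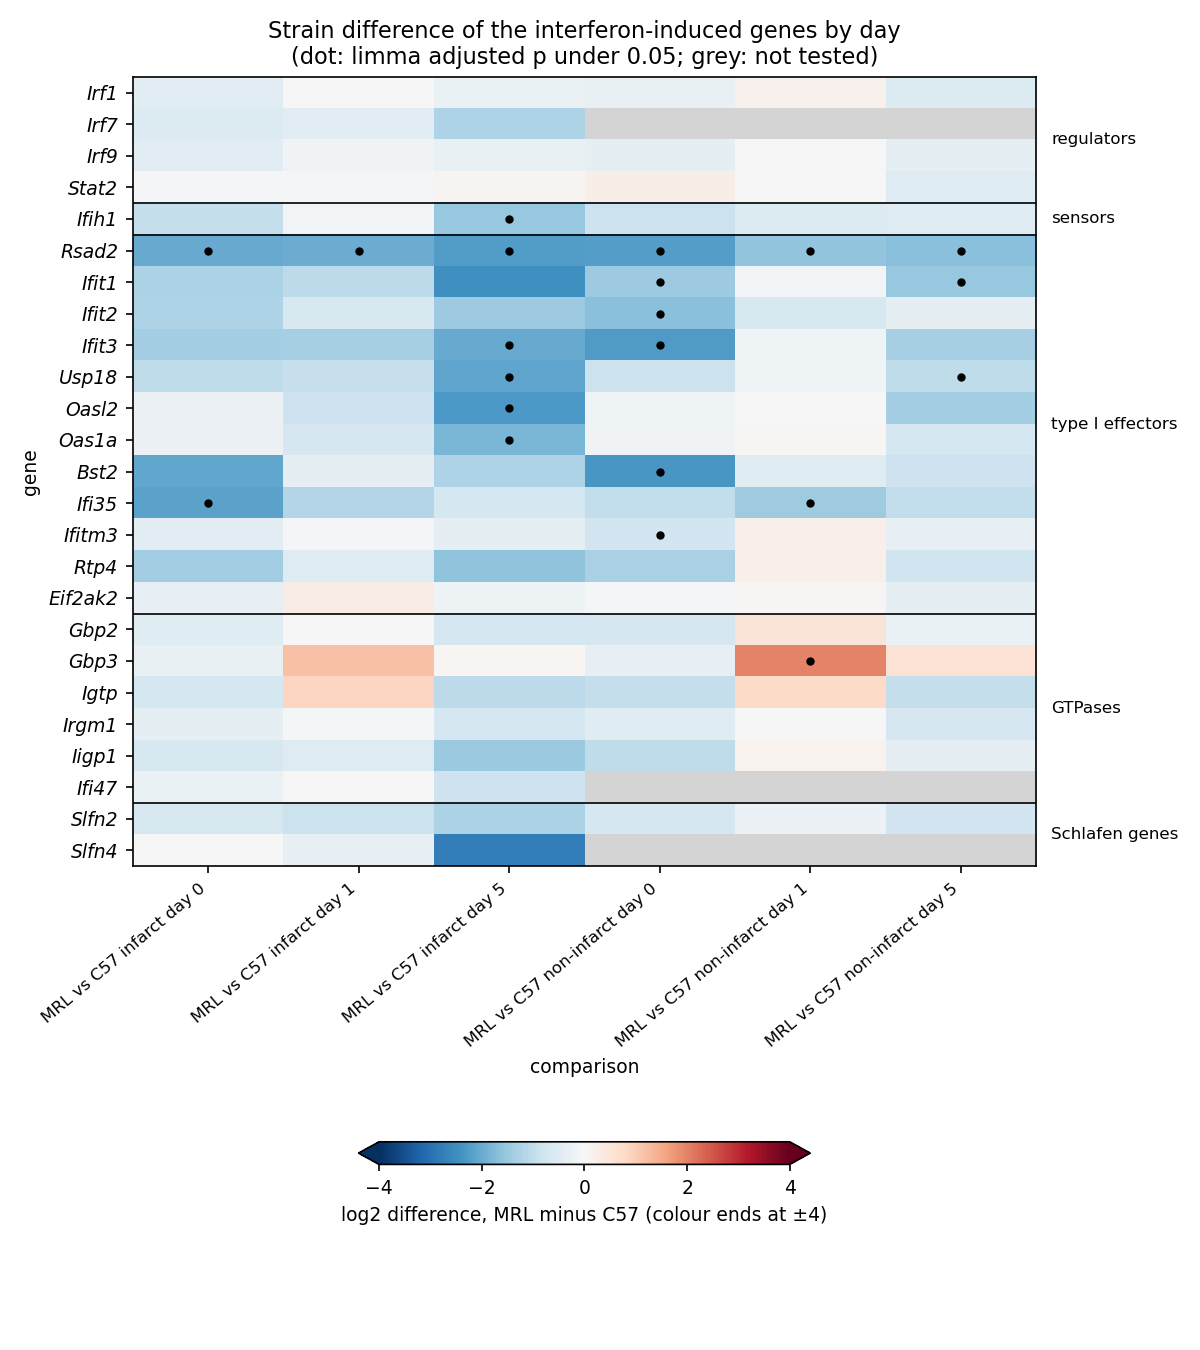
Log2 difference, MRL minus C57, of the 25 members tested in infarct tissue (rows, by class) for both tissues on days 0, 1 and 5 (columns). Colour gives the difference and ends at ±4, a dot marks a limma adjusted p under 0.05, and grey cells were not tested; Rsad2, by the probe set of highest mean, holds a dot in all 6 columns, and Gbp3 in non-infarct tissue on day 1 is the 1 call above 0.

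The difference between the strains' changes from day 0 was tested directly. In infarct tissue 0 of 25 members were called on day 1 (0.0263% of all genes tested were called in either direction) and 0 of 25 on day 5 (0.171%), with 2 (3.72% of all genes) and 4 members (3.64% of all genes) at an unadjusted p under 0.05. In non-infarct tissue 1 of 22 was called on day 1 (0.0137%, which is this 1 gene of 7322) and 0 of 22 on day 5 (0.0137%), where 10 members on day 1 (3.48% of all genes) and 3 on day 5 (1.94% of all genes) had an unadjusted p under 0.05. Without the pair the counts were 0, 0, 1 and 0 in the same order. The called member was Gbp3, at 2.31 ± 0.31 (adjusted p = 0.0044): its MRL change of 0.10 stood against a C57 change of -2.22. With an offset of 32 added to the intensities before log2, the Gbp3 difference was 1.14 and was not called (adjusted p = 0.11). Ifit3 had the next largest difference in that comparison, 2.11 ± 0.51 (adjusted p = 0.61). In infarct tissue on day 5 the largest were Slfn4, given above, and Oasl2, at -2.06 ± 0.71 (adjusted p = 0.86). All these use the day 0 arrays of both strains, as do the comparisons with day 0.

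Genes upstream of the members (interferons, their receptors and signalling) were listed apart. For this list and the lists below, the shares of all genes called in each comparison are those given above with the members. In infarct tissue on day 5 many genes outside the lists were called too, in both directions. Of 10 listed interferon ligands 9 had a probe set and 0 passed the filter in any tissue, so ligand RNA gave no test here. Of 19 tested genes of receptors and signalling, 8 were higher and 3 lower in MRL infarct tissue on day 5, and 8 were higher and 3 lower in C57. Without the pair the MRL count was 9 higher and 3 lower. Irf8, a factor of macrophage development, was the largest in both, at 3.19 ± 0.61 (adjusted p = 0.00034) in MRL and 3.46 ± 0.66 (adjusted p = 0.00047) in C57. Sting1, the adaptor of cytosolic DNA sensing, and Ifnar1, the type I receptor chain, followed in MRL at 1.88 (9.4e-05) and 1.73 (0.00021). Tlr7, an endosomal RNA sensor, and Myd88, its adaptor, followed in C57 at 1.88 (0.0036) and 1.78 (0.00067). Between strains 1 of these 19 genes was called, Myd88, with a difference of -1.57 (0.018) on day 1 and of -1.65 (0.014) on day 5 in infarct tissue.

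Other interferon targets, a list of 57 genes apart from the members, rose on day 5 in 16 of 29 tested in MRL infarct tissue and in 20 of 29 in C57, with medians of 0.85 and 1.17. Without the pair 17 of 29 rose in MRL and 20 of 29 in C57. The 3 largest were the same in both strains: Ifi30, a lysosomal thiol reductase of antigen processing, Lgals3bp, a secreted glycoprotein, and Pml, the core of nuclear bodies. Ifi30 rose by 3.93 (2.7e-05) in MRL and 4.15 (4.4e-05) in C57. Lgals3bp rose by 3.21 (1.4e-08) in MRL and 2.94 (1.6e-07) in C57. Pml rose by 2.07 (3.7e-05) in MRL and 2.39 (2.4e-05) in C57. Between strains, Gbp7 differed by -1.63 (0.0075) and Lgals3bp by -1.14 (0.041) in infarct-region tissue of day 0, 2 of 29 tested. In non-infarct tissue of day 0, Gbp7, Lgals3bp and B2m differed by -1.61 (0.0045), -1.40 (0.014) and -1.03 (0.04), 3 of 27 tested. On day 5 in infarct tissue, Cxcl10, a chemokine for T cells, differed by -1.35 (0.0015) and Gbp7 by -1.29 (0.036). In each of these the MRL level was the lower one.

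Macrophage markers moved with the day 5 rise of the members. The part of macrophages in that rise was not tested. All 10 listed monocyte and macrophage markers were tested, and 9 rose on day 5 in infarct tissue and 9 in non-infarct tissue of each strain. Without the pair 6 of 9 tested were called in C57 non-infarct tissue. Their mean log2 level on day 5 in infarct tissue was 9.25, 9.38, 7.51 and 9.38 in MRL, against 5.87, 5.83, 6.03 and 6.02 on day 0. In C57 it was 8.62, 9.61, 9.45 and 9.56 on day 5, against 6.31, 6.20 and 6.36 on day 0. In the C57 day 1 infarct array with the highest effector level (6.85), the macrophage level was 7.86, against 5.91 to 6.90 in the other arrays of its group. In the MRL day 1 infarct group, by contrast, the array with the highest macrophage level (7.45) had the lowest effector level (4.83). Between strains 0 of 10 macrophage markers were called in any tissue or day by limma, with 0 to 2 at an unadjusted p under 0.05. The median difference was -0.37 in infarct-region and -0.33 in non-infarct tissue on day 0, and -0.28 and 0.05 on day 5. On day 5 the 3 MRL infarct arrays with macrophage levels of 9.25 to 9.38 had effector levels of 5.55 to 6.25, and the 3 C57 arrays with levels of 9.45 to 9.61 had effector levels of 7.53 to 8.02. Of 8 T and NK lymphocyte markers with a probe set 1 passed the filter, and of 4 plasmacytoid dendritic cell markers 3 did, Bst2 itself and Irf8 among them. On day 5 in infarct tissue all 6 fibroblast markers rose in each strain, and 6 of 7 cardiomyocyte markers fell in MRL and 5 of 7 in C57, and their part in the members' changes was not tested.

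**Figure D5:**
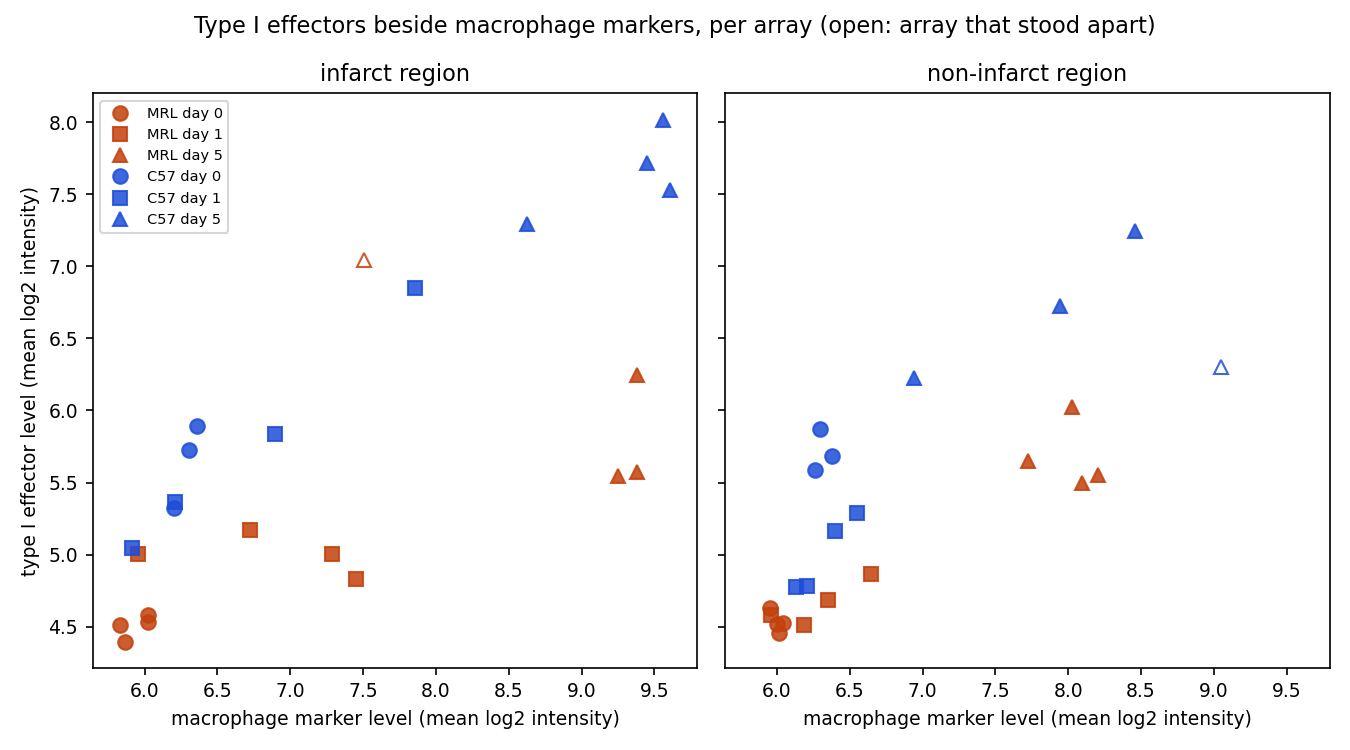
Mean log2 intensity of the 12 type I effectors (y axis) against that of the 10 monocyte and macrophage markers (x axis), 1 point per array, for infarct (left) and non-infarct tissue (right), with MRL in orange and C57 in blue, days by symbol and the pair of arrays that stood apart drawn open. On day 5 in infarct tissue the filled MRL points (5.55 to 6.25) lie below the C57 points (7.29 to 8.02) on the y axis.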

How the data were processed

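Total RNA from 46 left-ventricle samples in 12 groups was measured on 1-colour Affymetrix MOE430A arrays. The deposited values are intensities per probe set on a linear scale, which the authors made with GCRMA, per the submitters' processing notes; its version is not given in the sources used here. Log2 was taken with no offset, since the smallest intensity was 1.03 and the largest 54628. Array medians were 18.6 to 22.3 and the 75th percentiles 106 to 137.9, and the number of arrays limits the precision.

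Probe sets were named through GEO's platform annotation: 20380 have 1 gene symbol, 691 several and 1555 none, and 64 control probe sets were left out. A probe set was tested if it lay above the median of its own array in at least 3 arrays. Two-sided moderated tests (R 4.3.3 with limma 3.58.1, functions eBayes and lmFit) were fitted to the 23 arrays of a region with 1 mean per strain and day, or to all 46 arrays for infarct against non-infarct tissue. P-values were adjusted by Benjamini-Hochberg over all probe sets tested (12834, 12344 and 13138). A gene stands for its probe set with the highest mean among those tested, and counts over all genes run over 7608, 7322 and 7760 genes. The labels call replicates biological and do not say which arrays share a heart.

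The 32 members, the other lists and the tests were chosen with earlier results of these data known. Members could be named in every comparison, values in each array were given for Irf7, Ifit3, Igtp and Irf1 and for the called members with the largest changes, and other genes came from lists of interferon ligands, receptors, targets and cell markers. Rsad2, Gbp3 and further members were given by array because a comparison turned on them, chosen after their values were seen. The fit was tested on simulated data with 100 probe sets changed at each of 2 sizes. For MRL infarct tissue on day 5 against day 0 it recovered 53% of changes of log2 size 1 and 92% of size 2. For MRL non-infarct tissue on day 5 against day 0 it recovered 72% and 95%, and for MRL infarct against non-infarct tissue on day 5 48% and 94%. Far fewer probe sets changed there than were called in the data on day 5. These shares are therefore not recovery rates of the real comparisons. Alternatives were the normalization, the filter, an offset, the arrays in the fit, a replicate block, array weights, the representing probe set and arrays left out. Whether replicate numbers pair the arrays was checked by correlating deviations from group means.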

Additional observations from a re-analysis of the deposited data

Results flagged for a closer look

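Single arrays were compared with their own group in 90 groups of 4 arrays (for Irf7, Ifit3, Igtp, Irf1 and the mean level of each class), and chance sets apart about 1 in 20 such groups. In 4 of the 90 the highest or lowest array was far from the other 3. Ifit3 was at 5.09 in MRL day 0 non-infarct replicate 2, against 3.98 to 4.16 in the other arrays of its group. Irf7 was at 2.79 in MRL day 5 non-infarct replicate 1, against 3.44 to 3.55. The mean log2 level of the regulators was 4.89 in MRL day 0 non-infarct replicate 4, against 4.58 to 4.61. The mean level of the Schlafen genes was 4.08 in C57 day 1 non-infarct replicate 2, against 3.47 to 3.53. None of these is an array of the pair that stood apart over all genes.

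The change of Gbp3 from day 0 to day 1 in non-infarct tissue differed between MRL and C57 by 2.31 in log2 units, by limma's test of the difference itself (adjusted p = 0.0044). All 4 C57 day 1 arrays lay below all C57 day 0 arrays, while the MRL arrays of both days overlapped. The C57 day 1 level was below the median of every array, so the size is not exact. With an offset of 32 the difference was 1.14 and was not called (limma adjusted p = 0.11).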

How the results depend on the processing

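Of 121 calls of a member in a comparison, 64 passed the threshold under every alternative in which the member was tested, arrays left out included, and 0 reversed. Values below are counts of called members, and the causes of the shifts were not tested. Shares of all genes called under each setting are not set beside the counts of this section. A shift can therefore not be read as particular to the members. This holds also for the counts given above with 1 array left out. With a filter at the 75th percentile, which tests fewer genes, day 5 against day 0 gave 8 in MRL and 8 in C57 infarct and 3 in MRL and 2 in C57 non-infarct tissue, and C57 infarct tissue from day 1 to day 5 gave 9. MRL against C57 then gave 3 in infarct tissue on day 5 and 1 in non-infarct tissue on day 1 and on day 5, and the difference between the strains' changes in non-infarct tissue on day 1 gave 0. Infarct against non-infarct tissue gave 2 in MRL on day 5, and 3 on day 1 and 4 on day 5 in C57. With no filter, C57 non-infarct tissue on day 1 gave 1, and MRL against C57 gave 1 in infarct-region tissue on day 0 and 1 on day 5. With an offset of 32, C57 non-infarct tissue on day 1 gave 1, MRL against C57 on day 0 in infarct-region tissue 1, the difference between changes in non-infarct tissue on day 1 gave 0, and C57 infarct against non-infarct tissue 3 on day 1 and 13 on day 5. With other arrays in the fit, C57 non-infarct tissue on day 1 gave 1. MRL against C57 then gave 3 on day 1 and 11 on day 5 in infarct and 0 on day 5 in non-infarct tissue. With only the 2 groups compared in the fit, infarct against non-infarct tissue gave 0 in MRL and 0 in C57 on day 5 and 1 in C57 on day 1. With array weights, MRL infarct tissue on day 1 gave 7, and MRL against C57 5 on day 0 and 12 on day 5 in infarct and 8 on day 5 in non-infarct tissue. The difference between changes on day 5 gave 3 in infarct and 1 in non-infarct tissue, and MRL infarct against non-infarct tissue 3 on day 1 and 8 on day 5. Arrays centred on their median gave 1 for MRL against C57 on day 0 in infarct-region tissue, 1 on day 5 in non-infarct tissue, and 2 for MRL infarct against non-infarct tissue on day 5. Quantile normalization gave 5 for MRL against C57 on day 5 in non-infarct tissue, and moved the median change of all genes by -0.14 in C57 infarct and by -0.10 in MRL non-infarct tissue on day 5. Without the pair of arrays that stood apart, the counts were 5 for C57 non-infarct tissue on day 1, 7 for MRL against C57 on day 5 in non-infarct tissue, 8 for C57 infarct against non-infarct tissue on day 1 and 7 for MRL on day 5.

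Replicate numbers of infarct and non-infarct arrays were not taken as pairs: correlations of deviations ran from -0.46 to 0.77, every pair was over 0.1 in 2 of 6 groups of strain and day, and 13 of 23 arrays matched best with their own number. With a replicate block the count for MRL infarct against non-infarct tissue on day 5 was 7, in place of 4, and for C57 12, in place of 8. The block moved no other count by over 1.5 times.

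Leaving out 1 array at a time, the counts ranged from 2 to 4 in MRL and 1 to 3 in C57 infarct tissue on day 1, and from 12 to 16 in MRL and 14 to 16 in C57 on day 5. In non-infarct tissue they ranged from 0 to 1 in MRL and 1 to 4 in C57 on day 1, and from 8 to 9 in MRL and 4 to 8 in C57 on day 5. From day 1 to day 5 in infarct tissue they ranged from 5 to 8 in MRL and 15 to 19 in C57. For MRL against C57 they were 1 throughout, 0 to 2 and 0 to 8 on days 0, 1 and 5 in infarct tissue, and 3 to 5, 2 to 3 and 0 to 7 in non-infarct tissue. The difference between changes gave 0 throughout in infarct tissue and in non-infarct tissue on day 5, and 1 throughout in non-infarct tissue on day 1. For infarct against non-infarct tissue they ranged from 1 to 3 in MRL and 1 to 6 in C57 on day 1, and from 1 to 7 in MRL and 3 to 10 in C57 on day 5. Members below the median of every array in a group have changes of inexact size, and 3 arrays in C57 day 0 groups limit the comparisons that use them.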
